A study of Mus musculus with 8 samples.

Results

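The Smads are the transcription factors that carry signals of the transforming growth factor beta (TGF-beta) superfamily from cell surface receptors to the nucleus. All 8 mouse Smad genes, taken by their symbols, were listed in each of 3 tables of gene expression, which held 22958 entries (both RefSeq-based tables) or 45930 loci. The tables describe RNA of mouse hair follicle cells with and without Bmpr1a, through which bone morphogenetic proteins (BMPs) signal. Values are FPKM, which divide a gene's fragments by the length of its transcript and the size of the library, so levels of different Smads can be compared within a library. Each table was normalized on its own, and deleted and control cells were compared within it.

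Bulge stem cells (HFSCs) came from K15-CrePGR mice at postnatal day 68, with 1 library from Bmpr1a heterozygous cells (Het) and 1 from cells of the conditional knockout (cKO, Bmpr1a fl/fl). Transit-amplifying cells (TACs), the dividing cells of the hair bulb, came from Shh-CreER mice at day 68, with 1 Het and 1 cKO library. A second set of TACs came from hair bulbs of K15-CrePGR mice at day 80, with the samples WT 52 and WT 57 as controls and KO 64 and KO 84 without Bmpr1a. All mice were of mixed strain. K15-CrePGR is a hormone-inducible recombinase under the promoter of keratin 15, a bulge keratin, so that recombined stem cells can give rise to bulb cells. The part of each bulb that came from recombined cells is not known here. Shh-CreER is driven from the Shh gene, which is expressed in the bulb itself. The labels do not state how recombination was induced. Nor do they say that the K15-CrePGR samples are from separate animals. WT 52 and WT 57 differed in the sex-linked transcripts Xist (3.26 and 175 FPKM) and Ddx3y (26.4 and 0.0812 FPKM), so they are not repeats of the same RNA. A p-value here reflects the spread between the samples, which for the KO pair may be technical and for the WT pair includes this difference of sex. The Het and cKO tables allow no test.

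BMPs bind a complex of type I and type II receptors. The activated type I receptor phosphorylates the receptor-activated Smads of the BMP branch, Smad1, Smad5 and Smad9, whereas TGF-beta and activin receptors act on Smad2 and Smad3. Both kinds join the common Smad, Smad4, and bind DNA together, and the inhibitory Smads, Smad6 and Smad7, bind receptors or Smads and dampen the pathway that induces them. In the hair follicle, BMP signalling is known for holding bulge stem cells quiescent and for driving the differentiation of the hair shaft.

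The promoter sequences of Smad6 and Smad9 are shown because transcripts of both genes were lower without Bmpr1a in the HFSC and Shh-CreER tables. They are the 250 bases before the RefSeq transcription start (GRCm38.p6), written along the gene's strand: chr9:64022060-64022309 on the minus strand for Smad6 and chr3:54755332-54755581 on the plus strand for Smad9. Capitals mark GGCGCC, a GC-rich element bound by Smads of the BMP branch, and GTCT, the short Smad box, on either strand (GTCT also stands as AGAC).
Smad6: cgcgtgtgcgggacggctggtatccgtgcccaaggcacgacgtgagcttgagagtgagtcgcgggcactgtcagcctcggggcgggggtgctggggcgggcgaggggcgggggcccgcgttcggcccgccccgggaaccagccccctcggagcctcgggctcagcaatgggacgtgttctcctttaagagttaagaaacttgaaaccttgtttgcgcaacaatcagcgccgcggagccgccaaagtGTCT
Smad9: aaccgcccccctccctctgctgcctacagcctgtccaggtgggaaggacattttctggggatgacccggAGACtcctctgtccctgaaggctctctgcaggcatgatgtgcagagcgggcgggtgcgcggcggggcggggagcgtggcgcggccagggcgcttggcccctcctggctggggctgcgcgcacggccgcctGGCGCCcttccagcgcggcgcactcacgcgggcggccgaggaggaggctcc
The Smad9 window holds 1 GGCGCC and 1 AGAC, and the Smad6 window holds 1 GTCT and no GGCGCC. Of 32851 RefSeq promoter windows of this length, 9.59% held GGCGCC and 82.9% held GTCT on either strand, so most windows held GTCT. The palindrome GTCTAGAC (0.167% of windows) was in neither, nor was the composite of GGCGCC followed after 5 bases by GTCT (0.0700% of windows). The windows hold 66.8% (Smad6) and 73.2% (Smad9) G and C, against a median of 52.4% over all windows. The table of promoters held 5 of the 8 Smads (Smad1, Smad3, Smad5, Smad6 and Smad9). Of the starts of the other 3 of these genes, 1 of 3 Smad5 starts had a GGCGCC within its window.

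In the files' build, mm9, the loci listed for the Smads of the BMP branch were chromosome 8, 81862293 to 81923417 (Smad1), chromosome 13, 56804370 to 56843738 (Smad5), and chromosome 3, 54559503 to 54605179 (Smad9). Smad3 (63494573 to 63605801) and Smad6 (63800882 to 63869866) lie near each other on chromosome 9, and Smad2, Smad4 and Smad7 lie on chromosome 18.

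Markers of the labelled cell types were present. Summed over 11 bulge markers, HFSC libraries had 9278 FPKM (Het) and 3847 FPKM (cKO) and TAC libraries between 199 and 709 FPKM. Most of the HFSC sums was Krt15 (7834 and 3075 FPKM). The entries Tcf3 and Tcf4, also in that list, did not single out HFSCs. Tcf3 was at 32.9 and 38.8 FPKM in HFSCs and 50.1 to 62.7 FPKM in TACs. Tcf4 was at 10.3 and 12.8 FPKM in HFSCs and 11.3 to 26.7 FPKM in TACs. Matrix and shaft markers (11 genes, of which 10 were found in the K15-CrePGR table) summed to 36.8 and 73.2 FPKM in HFSCs and to between 1012 and 5685 FPKM in TACs. Bmpr1a transcripts were present in all 8 libraries, between 31.8 and 46.0 FPKM, which does not check the labels, because gene-level FPKM does not show whether a part of the gene was excised. Xist and the Y-linked Ddx3y differed between libraries of a comparison: Ddx3y was at 0.255 (Het) and 23.2 FPKM (cKO) in HFSCs, and at 26.4 FPKM in WT 52 against at most 0.753 FPKM in the other K15-CrePGR samples. Xist was at 68.9 (Het) and 3.98 FPKM (cKO) in HFSCs, so that sex and genotype cannot be told apart there. Depth, estimated from the steps of low FPKM, was about 55.1 M (Het) and 47.1 M reads (cKO) for HFSCs and 28.4 and 28.6 M reads for Shh-CreER TACs. It was not estimated for the K15-CrePGR table.

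**Figure D1:**
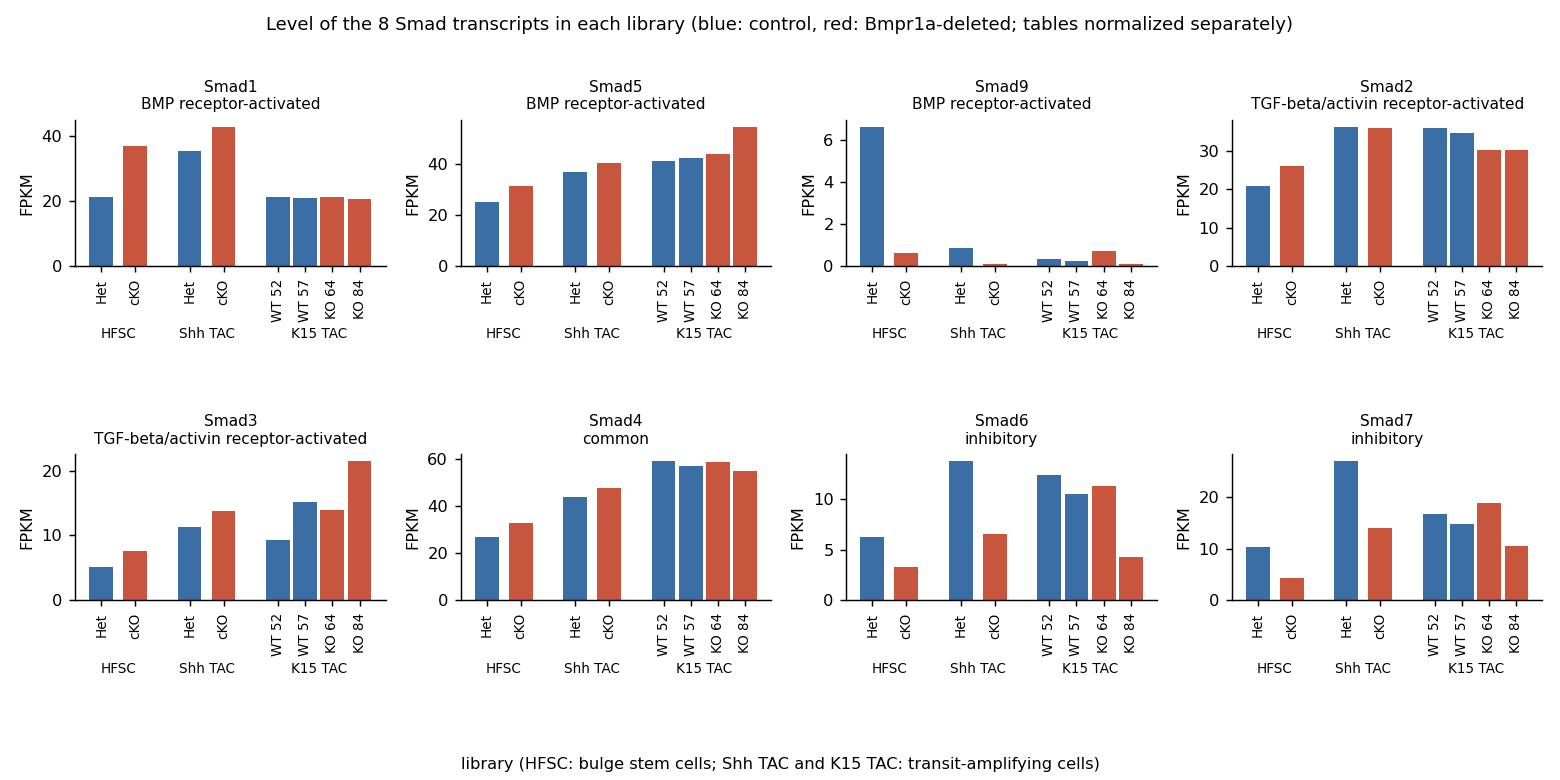
FPKM (y axis, linear from 0, a scale of its own in each panel) of each Smad in each of the 8 libraries, blue for control and red for Bmpr1a-deleted. Smad6 and Smad7 stand lower in red than in blue in HFSCs and in Shh-CreER TACs, and in KO 84 but not in KO 64 of the K15-CrePGR TACs, and Smad9 is at 6.61 and 0.597 FPKM in HFSCs.

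In bulge stem cells, the inhibitory Smads and Smad9 were lower in the cKO library and the other 5 Smads were somewhat higher. Smad9 and Smad7 were at least 2-fold lower on FPKM + 1, a size reached by 4.6% of 12205 genes, and Smad6 was at least 1.5-fold lower, as were 11.1% of genes. Smad1, with 13.2% of genes, was at least 1.5-fold higher. No Smad was 2-fold higher, as were 5.92% of genes. With 1 library per genotype there is no replicate check, and in bulk RNA fewer cells of a type and less RNA per cell cannot be told apart.

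Smad9, a receptor-activated Smad of the BMP branch, had 6.61 FPKM in the Het library of HFSCs and 0.597 FPKM in the cKO library. These levels correspond to about 1954 and 151 reads for a transcript of 5368 bp, and the ratio on FPKM was 11.1-fold lower (log2 difference on FPKM + 1 of -2.25). Only 0.606% of genes had a difference that low. The position of Smad9 among the 8 Smads moved from the sixth in the Het library to the lowest in the cKO library. Control TACs held at most 0.833 FPKM of Smad9.

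The other Smads of the BMP branch were higher. Smad1 had 21.1 FPKM (Het) and 36.7 FPKM (cKO, log2 difference 0.77), which made it the most abundant Smad of the cKO library, and 8.78% of genes differed by that much or more upwards. Smad5 was at 25.0 and 31.3 FPKM (0.31), a step that 27.5% of genes reached. The summed level of Smad1, Smad5 and Smad9 made up 43.2% of all Smad transcripts in Het and 48.1% in cKO, although Smad9 was lower.

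Smad6, an inhibitor that acts mainly on BMP receptors and Smad1, had 6.20 FPKM (Het) and 3.30 FPKM (cKO, log2 difference -0.74). Smad7, which also restrains TGF-beta receptors, was at 10.4 and 4.38 FPKM (-1.08). The 2 inhibitory Smads together made up 13.6% of Smad transcripts in Het and 5.38% in cKO. Smad2 (20.8 and 26.0 FPKM, log2 difference 0.31) and Smad3 (5.16 and 7.66 FPKM, 0.49), the signal carriers of TGF-beta and activin, and Smad4 (26.7 and 32.7 FPKM, 0.28) were higher in cKO by less than 1.5-fold. The median log2 difference of all genes was 0.05.

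Markers of other cell types moved between these 2 libraries as well. Sebaceous markers (7 genes, 491 and 153 FPKM summed), cornified epidermis (5 genes found of 6, 7083 and 2904 FPKM) and immune markers (6 genes, 303 and 122 FPKM) were lower in cKO. Melanocyte (6 genes, 5.33 and 37.9 FPKM) and smooth muscle markers (4 genes, 11.0 and 94.6 FPKM) were higher. The smooth muscle sum in cKO was carried by Acta2, Tagln and Myl9, with Myh11 at 0.0490 and 0.0892 FPKM. Endothelial markers (5 genes) summed to 0.289 and 0.655 FPKM, with Cdh5 listed at 0 in Het and Emcn in cKO. Xist and Ddx3y differed too, as given above. The part of these shifts in the Smad values was not tested.

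In TACs of Shh-CreER mice the same 2 inhibitory Smads had the most negative differences of the 7 Smads that passed the filter of a mean of 1 FPKM. Smad6 had 13.7 FPKM (Het) and 6.54 FPKM (cKO, log2 difference -0.96), and Smad7 at 26.8 and 14.0 FPKM (-0.89). Both were at least 1.5-fold lower on FPKM + 1, as were 6.86% of 12296 genes. Neither Smad passed 2-fold on that scale, which 2.77% of genes did downwards and 2.67% upwards, although the ratio of plain FPKM was 2.09-fold lower for Smad6 and 1.92-fold lower for Smad7. Only 3.04% of genes had a difference as low as that of Smad6 and 3.47% one as low as that of Smad7. Over genes kept in both tables, 1.36% of 11261 were at least 1.5-fold lower in both HFSCs and Shh-CreER TACs, Smad6 and Smad7 among them.

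Smad9 had 0.833 FPKM (Het) and 0.0974 FPKM (cKO), or about 127 and 14.9 reads. It did not pass the filter, and both levels are low, but the ratio of FPKM was 8.56-fold lower. Smad1 was at 35.4 and 42.7 FPKM (log2 difference 0.26) and Smad5 at 36.9 and 40.2 FPKM (0.12). Smad3 was at 11.3 and 13.8 FPKM (0.27), Smad4 at 43.9 and 47.8 FPKM (0.12) and Smad2 at 36.2 and 36.0 FPKM (-0.01). No Smad was 1.5-fold higher, as were 7.98% of genes.

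The share of the inhibitory Smads in all Smad transcripts was 19.8% in Het and 10.2% in cKO, and that of the BMP branch 35.7% and 41.3%. The ratio of inhibitory to BMP-branch Smad transcripts was 0.554 in Het and 0.247 in cKO. In HFSCs it was 0.314 and 0.112. Smad transcripts in all summed to 205 and 201 FPKM in Shh-CreER TACs and to 122 and 143 FPKM in HFSCs.

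Markers of other cells in the Shh-CreER libraries included endothelial genes (5 genes, 17.4 FPKM in Het and 29.7 FPKM in cKO summed), which were higher in cKO. Summed skeletal muscle (6 genes, 154 and 31.3 FPKM) and smooth muscle markers (4 genes, 45.8 and 29.6 FPKM) were lower in cKO. Matrix and shaft markers summed to 5685 FPKM in Het, mostly Krt35 (3092 FPKM) and Krt85 (1533 FPKM), and to 1019 FPKM in cKO. Of that list Shh (111 and 199 FPKM), Edar (14.1 and 52.5 FPKM) and Mki67 (97.2 and 125 FPKM) were higher in cKO. Melanocyte markers (6 genes, 94.0 and 23.9 FPKM) were mostly Dct (82.9 and 15.8 FPKM), and Tyrp1 (2.01 and 2.18 FPKM) and Sox10 (0.257 and 0.333 FPKM) were not lower. Adipocyte markers (3 genes, 298 and 193 FPKM) were nearly all Fabp4 (298 and 193 FPKM). Sebaceous markers (7 genes, 144 and 329 FPKM) were higher. The part of these shifts in the Smad values was not tested.

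**Figure D2:**
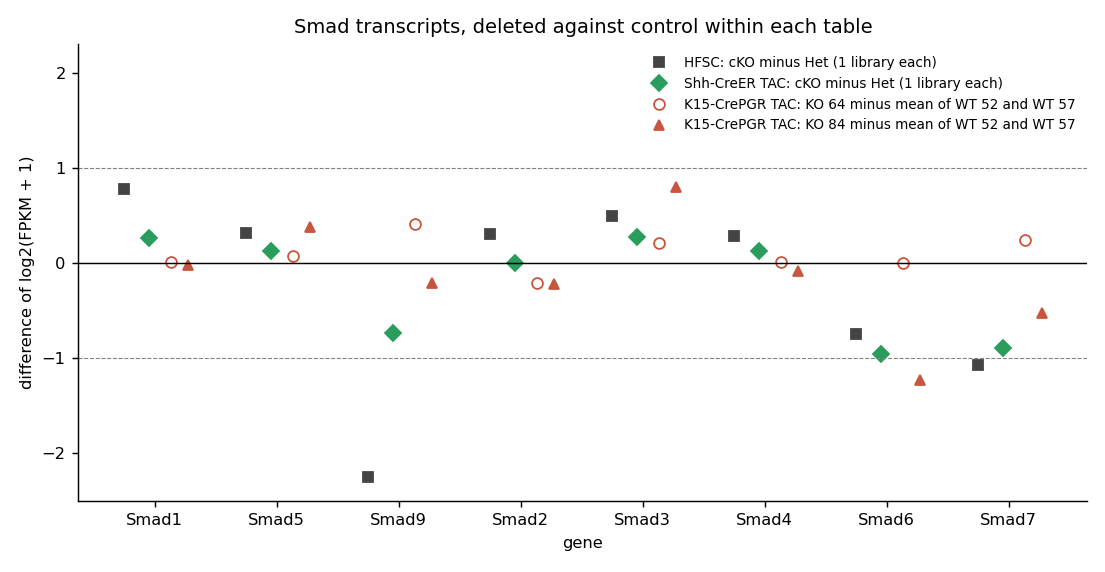
Difference of log2(FPKM + 1), deleted minus control (y axis), for each Smad (x axis). Squares are HFSCs, diamonds Shh-CreER TACs, and open circles (KO 64) and triangles (KO 84) are single K15-CrePGR samples against the mean of both WT samples. Dashed lines mark 2-fold. Smad6 lies between -0.74 and -1.23 and Smad7 between -0.53 and -1.08 in all but KO 64, whose values are -0.01 and 0.24, and Smad9 is shown also where its level was under 1 FPKM.

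In the K15-CrePGR bulbs, where 2 samples per genotype allow a test, no Smad passed it: 0 of the 7 Smads with a mean of at least 1 FPKM reached an adjusted p of 0.05 (limma on log2(FPKM + 1), Benjamini-Hochberg), as did 9 of 13565 loci (0.0663%, with 0.0369% higher and 0.0295% lower). None had an unadjusted p under 0.05 in limma either, against 17.4% of loci. For Smad6 and Smad7 the 2 KO samples went apart, with KO 84 below both WT samples and KO 64 within or above their range. KO 84 was below both WT samples in 5 of these 7 Smads, as in 37.9% of loci, and KO 64 in 1, as in 44.9%. Smad5 was above both WT samples in both KO samples, as were 26.8% of loci, and Smad2 was below in both, as were 27.5%.

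Smad6 was at 12.3 FPKM in WT 52, 10.5 in WT 57, 11.3 in KO 64 and 4.25 in KO 84. KO 64 lay between the WT samples and KO 84 at 0.373 times their mean, a distance of 2-fold or more that 3.54% of loci reached, and the groups overlapped (log2 difference -0.62 ± 0.446 (SE, n = 2 and 2), limma adjusted p = 0.493). Smad7 was at 16.7, 14.8, 18.7 and 10.6 FPKM in the same order. KO 64 was above and KO 84 below both WT samples (log2 difference -0.14 ± 0.297 (SE), limma adjusted p = 0.823). Without KO 64 the KO group is 1 sample, assumed to vary like the WT pair, and the differences were -1.23 for Smad6 (limma adjusted p = 0.137) and -0.53 for Smad7 (limma adjusted p = 0.271), and without KO 84 they were -0.01 and 0.24.

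Smad9 was under the filter of 1 FPKM in this table, at 0.334 and 0.233 FPKM in WT and 0.699 and 0.112 FPKM in KO 64 and KO 84. Its KO values lay on either side of both WT values, and Smad9, Smad6 and Smad7 were all lower in KO 84 than in KO 64. Smad1, Smad2 and Smad4 were also lower in KO 84 than in KO 64, by smaller steps, and Smad3 and Smad5 were higher. The share of all loci lower in KO 84 than in KO 64 was not counted. Smad1 was nearly level across the 4 samples, at 21.0, 20.9, 21.0 and 20.7 FPKM (log2 difference -0.01 ± 0.131 (SE), limma adjusted p = 0.985, and 0.01 with median scaling). Smad5 was at 41.1 and 42.4 FPKM in WT and 44.0 and 54.6 FPKM in KO (0.23 ± 0.169 (SE), limma adjusted p = 0.507).

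Among the TGF-beta branch, Smad2 was at 36.0 and 34.6 FPKM in WT and 30.3 and 30.1 FPKM in KO. The groups did not overlap, and the difference did not pass the test (log2 difference -0.22 ± 0.132 (SE), limma adjusted p = 0.438). Smad3 was at 9.30 and 15.2 FPKM in WT and 13.9 and 21.4 FPKM in KO, with WT 57 above KO 64 (0.50 ± 0.326 (SE), limma adjusted p = 0.463). Smad4 was at 58.9 and 57.1 FPKM in WT and 58.5 and 54.7 FPKM in KO (-0.04 ± 0.138 (SE), limma adjusted p = 0.911, and 0.06 with quantile normalization).

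The WT bulbs give the order of Smad levels with its spread. Smad4 came first (58.0 ± 1.26 FPKM, mean ± SD, n = 2), followed by Smad5 (41.8 ± 0.962), Smad2 (35.3 ± 0.969) and Smad1 (20.9 ± 0.0926). The samples of neighbouring genes did not overlap down to Smad7 (15.7 ± 1.31). Smad3 (12.2 ± 4.16) overlapped with both Smad7 and Smad6 (11.4 ± 1.30), and Smad9 (0.284 ± 0.0712) came last. The Het libraries had Smad4 and then Smad5 in front as well, with 26.7 and 25.0 FPKM in HFSCs and 43.9 and 36.9 FPKM in Shh-CreER TACs.

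KO 64 differed from the other 3 samples in markers of other cell types. All 5 endothelial, all 6 immune, all 8 fibroblast and dermal papilla, all 6 melanocyte and all 4 smooth muscle markers were highest in it, as was 1 of 5 skeletal muscle markers. So were all 4 Schwann, all 3 adipocyte, all 3 erythroid, 6 of 7 sebaceous, 5 of 6 cornified epidermis and 7 of 11 bulge markers. Of the 10 matrix and shaft and 7 inner root sheath markers, 0 were highest in KO 64. The share of all loci that were highest in KO 64 was not counted. The endothelial markers summed to 2.70 and 1.15 FPKM in WT 52 and WT 57, 26.7 FPKM in KO 64 and 3.52 FPKM in KO 84, and none was at 0. Immune markers summed to 101, 25.4, 858 and 147 FPKM in that order, with Cd207 at 0 in all but KO 64. Fibroblast and dermal papilla markers summed to 465, 454, 1740 and 566 FPKM. Whether cells of these types had a part in the levels of Smad6, Smad7 and Smad9 in KO 64 was not tested.

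**Figure D3:**
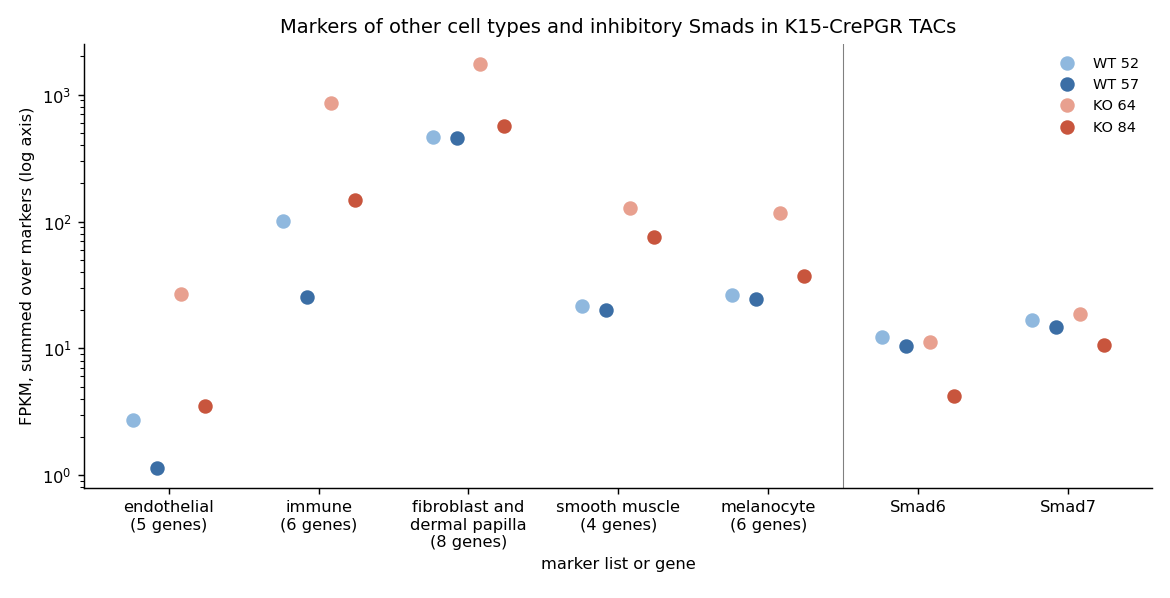
Summed FPKM of marker lists of other cell types, and FPKM of Smad6 and Smad7 (y axis, logarithmic), in the 4 K15-CrePGR TAC samples. KO 64 is highest in each of the 5 lists drawn (endothelial, immune, fibroblast and dermal papilla, smooth muscle, melanocyte), with 26.7 FPKM of endothelial markers against at most 3.52 FPKM elsewhere, and holds Smad6 at the WT level (11.3 FPKM) where KO 84 has 4.25 FPKM.

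The make-up of the Smad pool differed between the KO samples as well. Inhibitory Smads were 14.8% and 12.9% of Smad transcripts in WT 52 and WT 57, 15.1% in KO 64 and 7.55% in KO 84. Over groups this was 13.9% ± 1.34 in WT and 11.3% ± 5.37 in KO (SD, n = 2 and 2), a difference that did not pass an exact two-sided permutation test (p = 1.0, where 2 against 2 cannot go below 0.333). The BMP branch took 31.9% and 32.5% in WT, 33.1% in KO 64 and 38.4% in KO 84, higher in both KO samples (exact permutation p = 0.333). The summed level of all Smads stayed between 196 and 198 FPKM in the 4 samples.

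**Figure D4:**
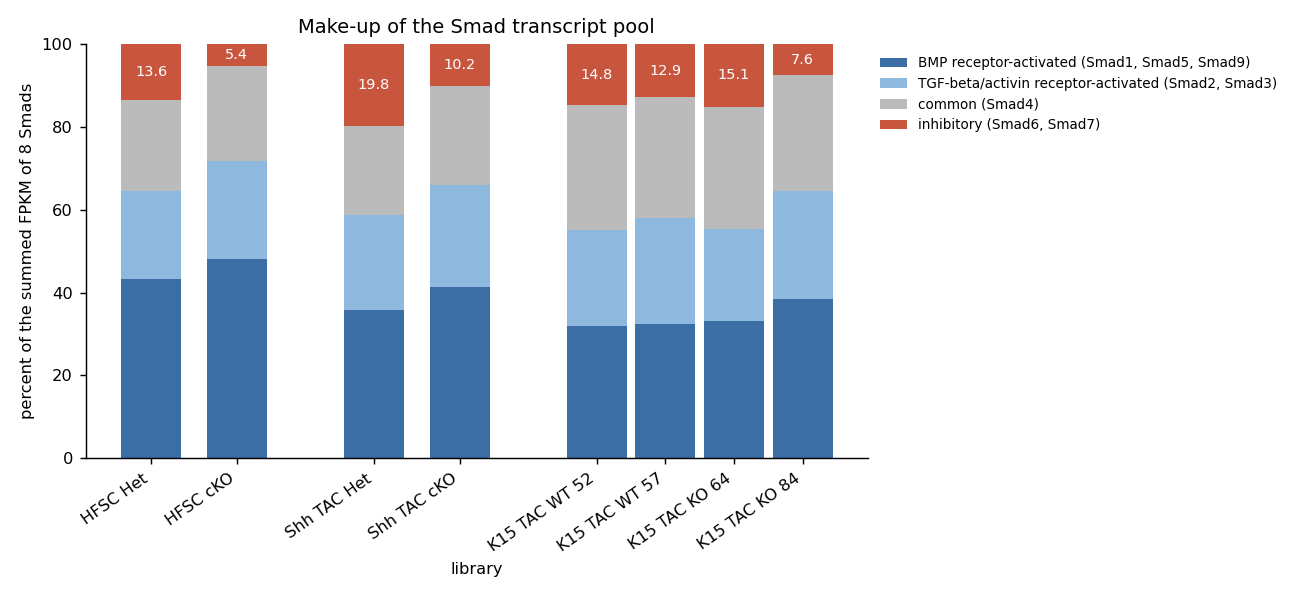
Percent of the summed FPKM of the 8 Smads (y axis) taken by each class, in each library (x axis), with the share of the inhibitory Smads printed in white. That share is 13.6 and 5.4 in HFSCs, 19.8 and 10.2 in Shh-CreER TACs and between 7.6 and 15.1 in K15-CrePGR TACs.

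Genes listed here as targets of the BMP Smads were counted apart from the Smads themselves. The list was chosen with earlier results of these data known, so its counts describe these genes and are no independent test. Of 15 targets that passed the filter in HFSCs, 9 were at least 2-fold lower (4.6% of all genes) and 1, Id4, was higher (5.92% of all genes), with a median log2 difference of -1.22 (all genes 0.05). At a mean of 5 FPKM or more the largest differences were those of Nog, an extracellular BMP antagonist (38.2 and 2.32 FPKM), and Id3, an inhibitor of helix-loop-helix factors (447 and 116 FPKM). In Shh-CreER TACs 8 of 12 were lower (2.77% of all genes) and 0 higher (2.67%), with a median of -1.26 (all genes 0.01), led by the forkhead factor Foxq1 (48.5 and 5.62 FPKM) and by Id1 (358 and 49.2 FPKM). In K15-CrePGR TACs 0 of 12 passed limma's adjusted threshold, with 6 under an unadjusted p of 0.05 (17.4% of all loci) and a median of -0.80 (all loci -0.03). Both KO samples were below both WT samples for 6 of these 12 targets (27.5% of all loci) and above for 1, Id4 (26.8% of all loci). Markers of the hair lineages moved in the same 2 samples: inner root sheath markers (7 genes) summed to 4375 and 4637 FPKM in WT and 1495 and 1347 FPKM in KO, and matrix and shaft markers to 3269 and 2717 FPKM in WT and 1235 and 1012 FPKM in KO. Most of the matrix and shaft sum was Krt35 (2519 and 2028 FPKM in WT, 733 and 624 FPKM in KO). Of that list Shh (19.6 and 19.8 FPKM in WT, 50.5 and 72.8 FPKM in KO) and Edar (2.55 and 5.94 FPKM in WT, 18.4 and 31.7 FPKM in KO) were higher in both KO samples. Bulge markers summed to 201 and 251 FPKM in WT and 601 and 709 FPKM in KO. The part of these shifts in the target and Smad values was not tested. The lists share members: Msx2 and Dlx3 are also matrix and shaft markers, and Gata3 is also an inner root sheath marker.

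The Id genes did not all go one way. Id1 was at 289 and 178 FPKM in WT and 120 and 136 FPKM in KO 64 and KO 84. Id2 was at 281 and 148 FPKM in WT and 86.7 and 78.8 FPKM in KO (limma adjusted p = 0.208), and Id3 at 573 and 315 FPKM in WT and 184 and 112 FPKM in KO (limma adjusted p = 0.206). For these 3 genes KO 64 and KO 84 were lower than either WT sample. Id4 was at 13.4 and 8.82 FPKM in WT and 26.9 and 17.7 FPKM in KO, higher in both KO samples (limma adjusted p = 0.249), and at 41.9 and 118 FPKM in Het and cKO HFSCs. Msx1, a homeobox target, was at 64.9, 51.8, 54.2 and 14.7 FPKM in WT 52, WT 57, KO 64 and KO 84, so that here too KO 64 lay within the WT range.

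Targets of the TGF-beta Smads moved both ways in HFSCs, with 3 of 13 higher by 2-fold or more and 2 lower (all genes 5.92% and 4.6%, median of the list -0.12). Ltbp2, a latent TGF-beta binding protein (79.6 and 9.23 FPKM), was lower. In Shh-CreER TACs 1 of 12 was higher and 2 were lower (2.67% and 2.77% of all genes, median 0.08), with Ctgf, a matricellular protein, at 6.58 and 35.3 FPKM and the cell cycle inhibitor Cdkn1a at 167 and 65.1 FPKM. In K15-CrePGR TACs none of 12 passed limma's adjusted threshold, 6 had an unadjusted p under 0.05 (17.4% of all loci), and the median was 1.60 (all loci -0.03). Both KO samples were above both WT samples for 9 of the 12 (26.8% of all loci) and below for 1 (27.5%). The largest differences there were those of Tgfbi (6.56, 1.41, 50.8 and 15.4 FPKM in WT 52, WT 57, KO 64 and KO 84) and Col1a1 (36.8, 10.5, 294 and 46.4 FPKM). Both were highest in KO 64, and Col1a1 is also in the fibroblast marker list given above.

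Receptors and co-receptors had no member that was 2-fold lower in HFSCs or Shh-CreER TACs. In HFSCs 1 of 12 was 2-fold higher (5.92% of all genes, median -0.01): Rgma, a BMP co-receptor, was at 20.5 and 45.5 FPKM. The type I receptor Acvr1, at 10.7 and 16.8 FPKM, was under 2-fold. In Shh-CreER TACs 2 of 13 were 2-fold higher (2.67% of all genes, median 0.34). They were Tgfbr3 (2.06 and 6.08 FPKM) and Rgma (2.04 and 5.09 FPKM). At a mean of 5 FPKM or more, the type II receptor Tgfbr2 (10.8 and 17.4 FPKM) and the co-receptor Rgmb (7.75 and 12.5 FPKM) stood foremost. Both were under 2-fold. In K15-CrePGR TACs 0 of 13 passed limma's adjusted threshold, 3 had an unadjusted p under 0.05 (17.4% of all loci), and the median was 0.38. Both KO samples were above both WT samples for 9 of the 13 (26.8% of all loci) and below for 0 (27.5%). Rgma was at 5.16 and 4.04 FPKM in WT and 16.1 and 15.5 FPKM in KO (limma adjusted p = 0.0866). The locus that joins Eng, an endothelial co-receptor, with Ak1 was at 5.83 and 8.07 FPKM in WT and 28.7 and 17.5 FPKM in KO (limma adjusted p = 0.142).

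Cofactors and phosphatases of the Smads had few 2-fold differences. In HFSCs 2 of 22 were 2-fold higher and 0 lower (5.92% and 4.6% of all genes, median 0.08). They were the corepressor Tgif2 (5.18 and 13.3 FPKM) and Ppm1h (0.881 and 2.85 FPKM). The partner Runx1, at 11.1 and 21.3 FPKM, was under 2-fold on FPKM + 1. In Shh-CreER TACs 0 of 23 differed 2-fold (5.43% of all genes did, median 0.16), with Runx2 at 15.4 and 26.4 FPKM and Tgif1 at 80.8 and 116 FPKM. In K15-CrePGR TACs 0 of 24 passed limma's adjusted threshold, 3 had an unadjusted p under 0.05 (17.4% of all loci), and the median was 0.29. Both KO samples were above both WT samples for 12 of the 24 (26.8% of all loci) and below for 4 (27.5%). The corepressor Skil was at 9.82 and 6.86 FPKM in WT and 12.6 and 14.1 FPKM in KO (limma adjusted p = 0.262). The locus that joins the phosphatase Ctdsp2 with 2 microRNA genes was at 46.3, 189, 239 and 448 FPKM in WT 52, WT 57, KO 64 and KO 84 (limma adjusted p = 0.321).

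Ubiquitin ligases and deubiquitinases, which set the turnover of Smads and receptors, had no 2-fold difference among 12 genes in HFSCs (10.5% of all genes, median 0.06) or in Shh-CreER TACs (5.43% of all genes, median 0.14). In HFSCs the ligase Wwp2 was at 70.7 and 37.0 FPKM and Stub1 at 40.8 and 27.9 FPKM. In Shh-CreER TACs the deubiquitinase Usp11 was at 4.04 and 8.05 FPKM and Usp9x at 17.0 and 29.5 FPKM. In K15-CrePGR TACs 0 of 12 passed limma's adjusted threshold, 2 had an unadjusted p under 0.05 (17.4% of all loci), and the median was 0.04. Smurf1, a ligase for the BMP-branch Smads, was at 5.79 and 5.21 FPKM in WT and 7.78 and 7.51 FPKM in KO (limma adjusted p = 0.294). The locus that joins Stub1 with a microRNA gene was at 126 and 66.5 FPKM in WT and 56.9 and 56.5 FPKM in KO (limma adjusted p = 0.369).

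**Figure D5:**
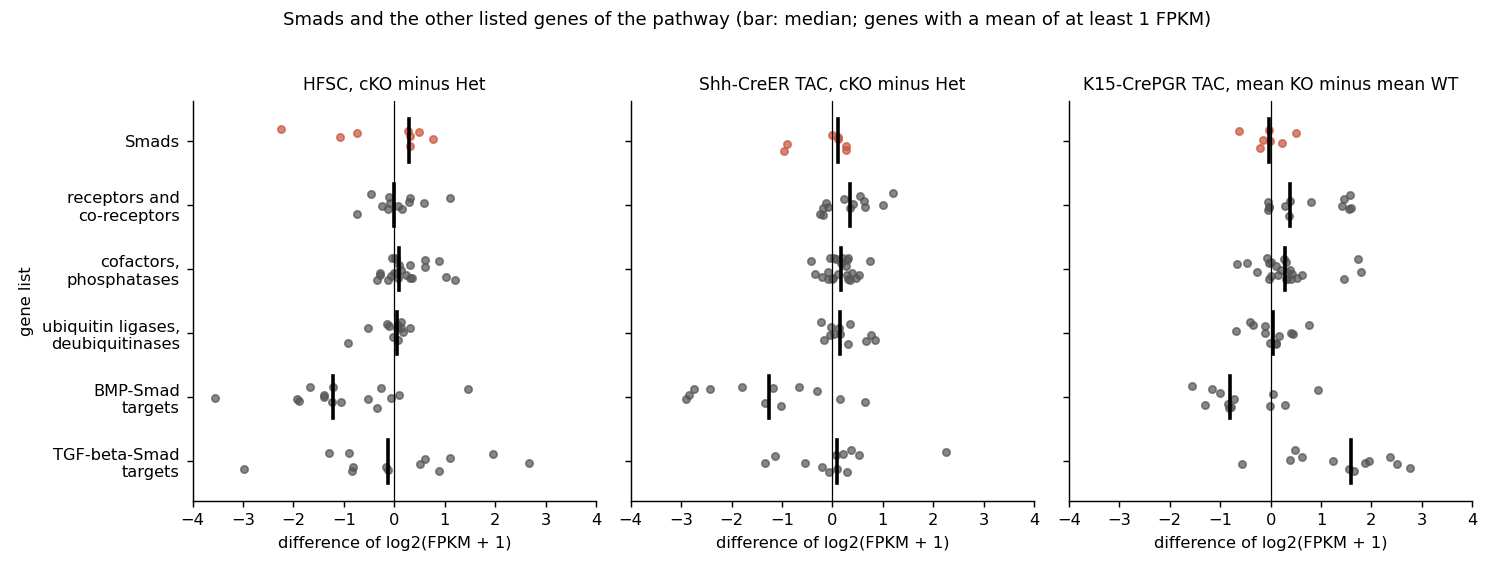
Difference of log2(FPKM + 1) (x axis), deleted minus control, for genes of each list whose mean reached 1 FPKM (y axis), one panel per table, with the median as a bar. The BMP-Smad targets have medians of -1.22, -1.26 and -0.80, while receptors, cofactors and ligases have medians between -0.01 and 0.38. The TGF-beta-Smad targets have medians of -0.12, 0.08 and 1.60.

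The genes most like each Smad were taken over 8 libraries, as Pearson's r of log2(FPKM + 1) centred on the controls of each table, among 7394 genes whose mean reached 5 FPKM in every table. Smad6 was closest to Rab3gap2 (r = 0.981), Dmpk (0.980) and Npc1 (0.978), and Smad7 to Epn3 (0.981), Cln8 (0.979) and Ugcg (0.973). Dmpk, a kinase best known from muscle, had 8.25 and 2.91 FPKM in HFSCs (Het, cKO). In K15-CrePGR TACs it had 32.0, 20.2, 18.7 and 5.37 FPKM in WT 52, WT 57, KO 64 and KO 84. For Smad9 the closest were Sphk2 (0.993), Tmod3 (0.989) and Ppp6r1 (0.984), for Smad1 they included Ireb2 (0.994) and Bbip1 (0.989), and for Smad3 they were Zmynd8 (0.990), Brpf3 (0.977) and Erlec1 (0.969). Smad6 and Smad7 had an r of 0.830 with each other. The 8 points share libraries and controls, so these values are a description only.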

How the data were processed

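RNA of 8 libraries was sequenced and analysed from the deposited tables. Per the labels' protocols, libraries were made at a core facility after kit extraction. The authors deposited FPKM, 1 column per library, made with TopHat and Cufflinks on mm9 per the submitters' processing notes (versions: not given in the sources used here). Besides named genes, the K15-CrePGR table held 8904 unnamed loci, with 78.4% to 79.0% of summed FPKM, which were left out. Of repeated symbols, the one of highest mean stayed (each Smad had 1 entry), and a joined locus stood for each of its symbols in the gene lists.

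Features under a mean of 1 FPKM were left out. In the K15-CrePGR table, log2(FPKM + 1) of 13565 loci was fitted with limma 3.58.1 (intensity trend, two-sided) in R 4.3.3, with Benjamini-Hochberg adjustment over all loci and a threshold of 0.05, and the procedure was tested on simulated data. In the other tables a 2-fold difference on FPKM + 1 was counted, with no test. Fold changes on this scale understate those of low genes. Depth was estimated from the steps of low FPKM and GENCODE vM21 lengths of transcripts over 1000 bp (65.5% to 68.9% of values under 6 reads came within 0.1 of a whole read), so read numbers per gene are approximate, and they entered no test.

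The members, gene lists and alternatives were chosen with earlier results of these data known. Named genes are all Smads, Bmpr1a, in each other list the 2 members that differed most and whose mean reached 5 FPKM, and the 3 genes most like each Smad that differed by at least 0.5. Some genes that this rule names are not reported here. Id1, Id2 and Msx1 in the K15-CrePGR table, Rgma and Tgfbr3 in the Shh-CreER table, Ppm1h, Id4, and Cdh5, Emcn and Cd207, were added after their values were seen. Promoter windows came from RefSeq, of another build than the files. Python 3.11.15, pandas 2.3.3, scipy 1.17.1 and matplotlib 3.10.9 were used.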

Additional observations from a re-analysis of the deposited data

Results flagged for a closer look

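Smad2 differed in opposite directions in stem cells and in bulbs of K15-CrePGR mice. Its log2 difference was 0.31 in HFSCs (20.8 FPKM in Het, 26.0 in cKO) and -0.22 in K15-CrePGR TACs, where both KO samples were below both WT samples (limma adjusted p = 0.438). Differences of this kind were common, since 27.8% of genes were higher by more than that in HFSCs and 27.5% of loci had both KO samples below both WT samples. In Shh-CreER TACs the difference was -0.01. The difference between the 2 cell populations was not tested, since the tables were normalized separately and HFSCs have 1 library per genotype.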

How the results depend on the processing

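HFSCs and Shh-CreER TACs, with 1 library per genotype, allow no test, and the number of samples limits the precision in K15-CrePGR TACs. Smad6 and Smad7 stayed lower in HFSCs and Shh-CreER TACs, as did Smad9 in HFSCs, under every alternative that kept them (a filter of 5 FPKM drops Smad6 and Smad9 in HFSCs). A pseudocount of 5 took Smad7 in HFSCs to -0.71, under 2-fold, leaving 1 Smad called lower there, and the filter of 5 FPKM left 1 as well. A pseudocount of 0.1 brought Smad6 in Shh-CreER TACs past 2-fold (-1.05), so that 1 Smad was called. At 1.5-fold, 1 Smad was higher in HFSCs, and 2 were lower in Shh-CreER TACs.

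Counts over all genes in HFSCs were 722 higher and 562 lower. With a pseudocount of 5 they were 302 and 278, with a filter of 5 FPKM 436 were higher, and at 1.5-fold they were 1607 and 1357. In Shh-CreER TACs they were 328 and 340, with 527 higher at a pseudocount of 0.1, 119 and 173 at 5, 198 higher with a filter of 5 FPKM, and 981 and 844 at 1.5-fold. Listed pathway genes (Smads left out) in HFSCs came to 3 higher and 7 lower with a pseudocount of 5 and to 12 higher at 1.5-fold. In Shh-CreER TACs 1 was higher with a pseudocount of 5 or a filter of 5 FPKM, and 10 at 1.5-fold.

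In K15-CrePGR TACs 5 loci were called higher and 4 lower. The counts of higher loci were 9 with a filter of 5 FPKM, 2 with no filter, 3 without the intensity trend, 13 (and 8 lower) with a pseudocount of 0.1 and 3 with one of 5. At an unadjusted p of 0.05 they were 1397 and 961, with 12 and 7 of the pathway genes. Leaving out 1 sample gave 0 to 18 higher and 0 to 7 lower, with 0 both ways without WT 52 or without WT 57. No Smad was called under any of these. Signs opposite to the full data were given by median scaling for Smad1 (0.0089) and by quantile normalization for Smad4 (0.065). Leaving out 1 K15-CrePGR sample moved Smad1 from -0.018 (without KO 64) to 0.0057 (without KO 84), Smad4 from -0.083 to 0.012 and Smad7 from -0.53 to 0.24 in the same way. The share of Smad2 and Smad3 among Smad transcripts differed by -0.06 percentage points, ranging from -2.04 (without KO 84) to 1.93 (without KO 64) and at 1.09 without WT 57. That of the inhibitory Smads differed by -2.51 points, ranging from -6.30 (without KO 64) to 1.29 (without KO 84). The cause of these changes was not tested. No paired analysis was possible because the K15-CrePGR samples share no replicate numbers.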
